A study of Mus musculus with 6 samples.

Results

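The genes described here are the amino acid transporter families of the mouse, the solute carrier (SLC) families 1, 3, 6, 7, 36, 38 and 43, in soleus muscle under hindlimb suspension with and without electroacupuncture. Members were chosen by gene symbol alone, from the transcript clusters of the array that carry 1 symbol, with the cluster of the highest mean signal kept for each symbol. This gave 64 of the 19938 genes measured. Of these, 62 are transporter genes or their heavy chains. The remaining 2, Slc7a6os and Slc6a19os, are genes on the strand opposite a transporter gene, and share only its name. The opposite-strand genes Slc36a1os and Slc36a3os were not analysed here.

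Total RNA of soleus, a postural calf muscle, was hybridised to Affymetrix Gene 1.0 ST arrays in 3 groups of 2. The groups were suspension with electroacupuncture, in which current is passed through acupuncture needles, suspension alone, in which the hind limbs are lifted off the ground and bear no load, and control. Every array was of a male C57BL/6 mouse aged 8 weeks, by its labels. The sources used here give neither the length of suspension nor the points and current of the electroacupuncture. Nor do they state if duplicate arrays represent different animals, so the p-values measure only the spread between arrays, which may be technical. Values are log2 signals, and differences are in log2 units with the standard error (SE) or the 95% interval of limma's moderated test. A gene was called at an adjusted p under 0.05 over all 19938 genes, by limma with the Benjamini-Hochberg method. Whether the arrays of groups overlap is given for single genes as description only. The share of all genes without overlap was not counted.

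Muscle draws amino acids from blood through families that differ in what they carry and what drives them. System L carriers pass leucine and other large neutral amino acids, system A carriers use the sodium gradient to take up small neutral ones, and SLC7 light chains work as exchangers bound to a heavy chain, Slc3a2 or Slc3a1. Other members carry creatine, taurine, glutamate or cationic amino acids, and several sit on lysosomes, where amino acid supply is reported to the kinase complex mTORC1.

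The tissue label was checked against marker genes. All 10 slow-muscle markers lay above background. Their mean signal was 10.71 and 11.07 on the arrays of suspension with electroacupuncture, 10.82 and 10.88 under suspension, and 11.25 and 11.55 in control. All 10 fast-muscle markers lay above it too, with means of 11.86 and 11.80, 11.92 and 11.95, and 11.40 and 11.20 in the same order of groups. Endothelial markers (11 of 11), fibroblast and tendon markers (13 of 13), smooth muscle and pericyte markers (9 of 9), adipocyte markers (9 of 9 measured) and macrophage markers (12 of 13) were also above background. RNA of several cell types was thus measured together, and in such bulk samples fewer cells of a type and less RNA per cell cannot be told apart. Not every listed gene is particular to its cell type. Des in the smooth muscle and pericyte list and Car3 in the adipocyte list, with means of 11.94 and 12.52, are also muscle fibre genes.

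Background was set by 1027 olfactory receptor genes, taken as genes not used in muscle. The median of their mean signals was 2.10, and 95% of them lay at or below 3.50. Of the 64 members, 43 (67.2%) had a mean signal over the 6 arrays above that level, against 68.8% of all genes. All 4 SLC36 and all 3 SLC43 genes were above it, as were 10 of 11 SLC38 genes, 6 of 7 SLC1 genes, 9 of 16 SLC7 genes, 10 of 21 SLC6 genes and 1 of 2 SLC3 genes. Signals of different probes are not on a common scale, so levels are not ranked between genes.

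The 21 members below it were Slc1a6, Slc3a1, Slc38a5, Slc7a3, Slc7a9, Slc7a11, Slc7a12, Slc7a13, Slc7a14, Slc7a15, Slc6a3, Slc6a4, Slc6a5, Slc6a14, Slc6a15, Slc6a16, Slc6a18, Slc6a19, Slc6a19os, Slc6a20a and Slc6a21. Several are known from other tissues. Slc3a1 with Slc7a9 reabsorbs cystine in the kidney, Slc6a19 takes up neutral amino acids in gut and kidney, and Slc6a3, Slc6a4 and Slc6a5 serve dopamine, serotonin and glycine in neurons. Slc7a11 is the cystine and glutamate exchanger. Near the boundary, Slc6a4 lay just below it with a mean of 3.46, and Slc36a3, Slc38a8, Slc6a20b, Slc6a7 and Slc6a13 lay just above it with means of 3.52, 3.59, 3.63, 3.68 and 3.68. With a stricter level of 4.51, the 99th percentile among olfactory receptors, 28 were above background, and with the 95th percentile of 163 vomeronasal receptor genes, 2.73, there were 57. The 15 genes between 3.50 and 4.51 were Slc1a2, Slc1a4, Slc1a7, Slc36a3, Slc38a1, Slc38a8, Slc38a11, Slc6a2, Slc6a7, Slc6a11, Slc6a12, Slc6a13, Slc6a17, Slc6a20b and Slc7a4.

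**Figure D1:**
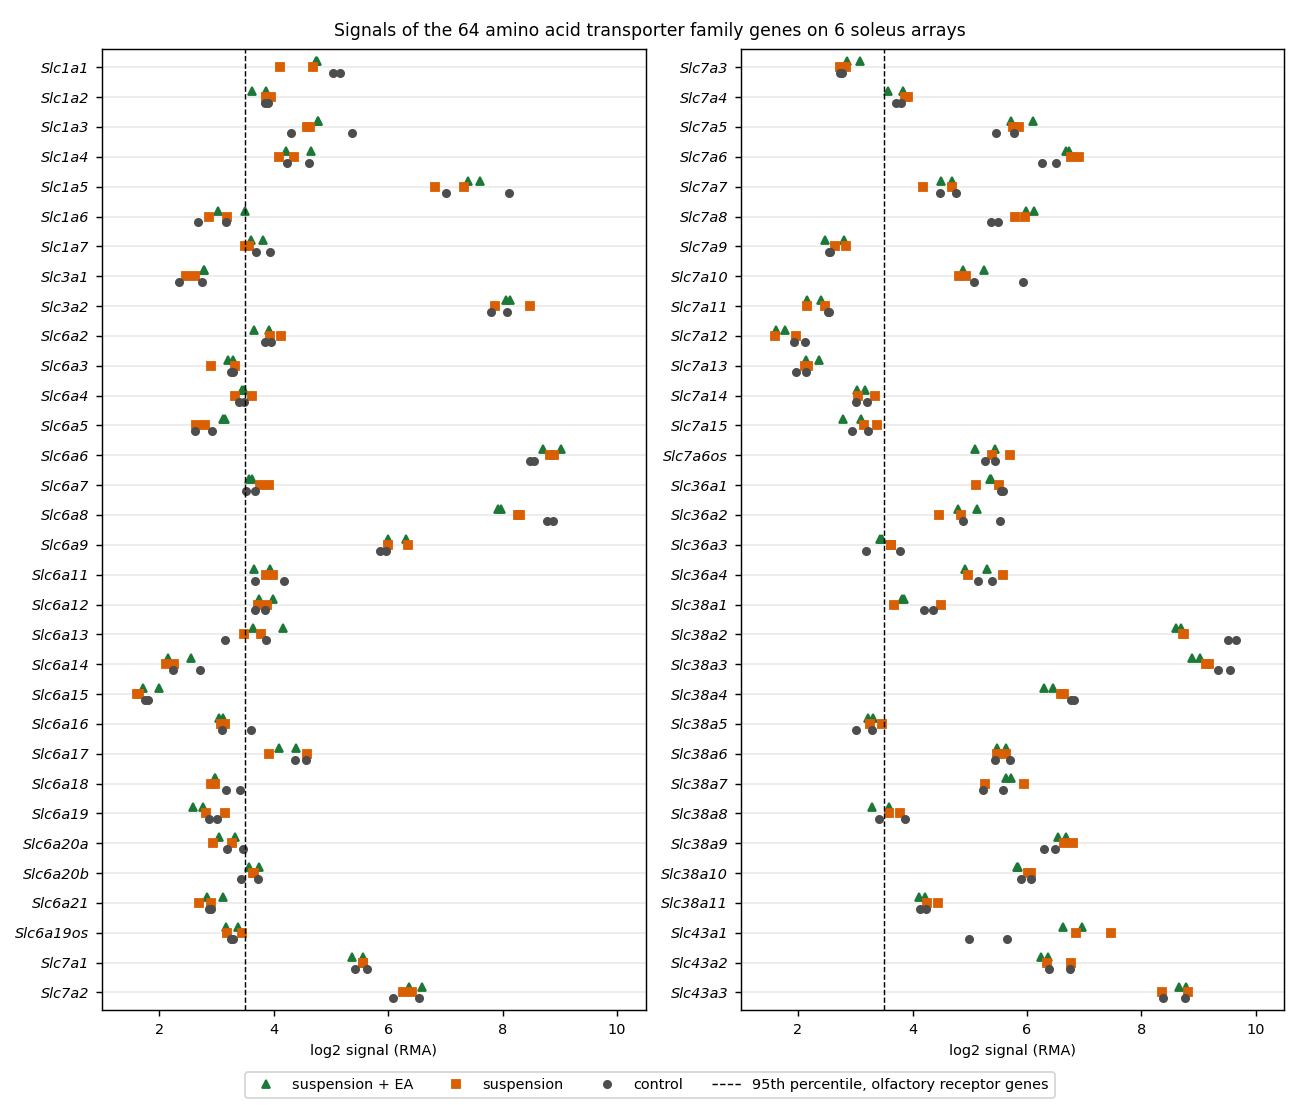
Log2 signal (horizontal axes) of each of the 64 members (1 line a gene) on the 6 arrays, as triangles for suspension with electroacupuncture (EA), squares for suspension and circles for control. The dashed line is the background, the 95th percentile of 1027 olfactory receptor genes at 3.50, and the arrays of most genes lie close together, with Slc43a1 and Slc38a2 as the genes whose control arrays stand furthest from the other 4.

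Suspension was compared with control to address the effect of unloading. In suspended soleus 1 member rose, the system L transporter gene Slc43a1, and 1 fell, the system A transporter gene Slc38a2. The remaining 62 did not pass the test. Over all genes 1.05% were called, 0.537% higher and 0.512% lower in suspension. At an unadjusted p under 0.05 there were 10 members (15.6%), 5 higher and 5 lower, against 12.7% of all genes. The median difference of the members was 0.03, against 0.01 for all genes, and the median size of a difference was 0.19, against 0.16. Differences of the members ran from -0.85 for Slc38a2 to 1.84 for Slc43a1, with 36 above 0 and 28 below.

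Slc43a1, also called LAT3, is a facilitated transporter of leucine and other large neutral amino acids that needs no heavy chain and lies on chromosome 2. Its signal was 6.62 and 6.96 on the arrays of suspension with electroacupuncture, 7.47 and 6.86 under suspension, and 4.99 and 5.65 in control. All 4 suspended arrays were above both control arrays, and the groups with and without electroacupuncture overlapped. Slc43a1 rose by 1.84 ± 0.26 (SE, n = 2 a group), 3.58-fold, under suspension relative to control (limma adjusted p = 0.0189, 95% interval 1.26 to 2.43). The call was lost without suspension array 1, at a difference of 1.54 (limma adjusted p = 0.111), and when every transcript cluster of the array was tested by itself.

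Slc38a2, also called SNAT2, takes up alanine, glutamine and other small neutral amino acids with sodium, and its transcript is known to increase in cells short of amino acids. Its signal was 8.68 and 8.60 under suspension with electroacupuncture, 8.73 and 8.74 under suspension, and 9.52 and 9.66 in control. All 4 suspended arrays were below both control arrays. Slc38a2 fell by 0.85 on the log2 scale (SE 0.12, n = 2 a group), 1.81-fold lower, under suspension relative to control (limma adjusted p = 0.0210, 95% interval -1.13 to -0.57). The difference was -0.85 without suspension array 1 (limma adjusted p = 0.132) and -0.86 without suspension array 2 (limma adjusted p = 0.130), neither of them a call. The call was also lost without either electroacupuncture array (limma adjusted p = 0.0730 and 0.0729), without a trend in the prior variance, with the replicate block (limma adjusted p = 0.0522), in a fit of the 2 groups alone and with every cluster by itself.

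The promoters of the 2 members called under suspension are shown because these genes moved in opposite directions. They are the 250 bases before the RefSeq start (build GRCm38.p6), 5′ to 3′ on the gene's strand, at chr2:84840073-84840322 (plus strand) for Slc43a1 and chr15:96699729-96699978 (minus strand) for Slc38a2. Capitals mark matches to 4 motifs, each searched on both strands. The E-box, bound by factors such as MYC and TFEB, was searched as CACGTG. The GC box, bound by SP1 and its relatives, was searched as GGGCGG, which reads as its reverse complement in capitals where it lies on the opposite strand. The TATA box, a core promoter motif, was searched as TATAAA. The amino acid response core, bound by ATF4 with a partner, was searched as TGATGNAA.
Slc43a1: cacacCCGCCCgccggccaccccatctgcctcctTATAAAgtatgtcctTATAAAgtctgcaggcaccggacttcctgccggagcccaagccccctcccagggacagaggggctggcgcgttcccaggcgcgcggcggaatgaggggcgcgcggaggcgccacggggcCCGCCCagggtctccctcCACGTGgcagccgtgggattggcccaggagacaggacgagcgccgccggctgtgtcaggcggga
Slc38a2: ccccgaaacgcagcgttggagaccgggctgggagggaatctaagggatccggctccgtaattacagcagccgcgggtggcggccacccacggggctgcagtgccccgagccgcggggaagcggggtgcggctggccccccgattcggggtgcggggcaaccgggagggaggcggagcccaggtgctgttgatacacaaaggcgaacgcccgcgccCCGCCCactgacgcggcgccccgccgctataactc
The Slc43a1 window held 1 E-box, 2 GC boxes and 2 TATA boxes, and the Slc38a2 window held 1 GC box. The 2 TATA box matches lay far from the start, at 216 to 211 and 201 to 196 bases before it. Neither window held the amino acid response core, and no match overlapped another. Bases further upstream or after the start were not searched, so the core may lie elsewhere in either gene. Of 32851 RefSeq promoter windows of that length, 6.02% held the E-box, 32.7% the GC box, 12.4% the TATA box and 3.45% the amino acid response core. Among the 68 windows of the 47 members that matched by symbol, 9 (13.2%), 32 (47.1%), 6 (8.82%) and 4 (5.88%) held them in the same order. A match describes the letters of the window and is not a site.

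The other system L genes did not pass the test. Slc43a2 (LAT4), the nearest relative of Slc43a1, was 6.36 and 6.25 under suspension with electroacupuncture, 6.78 and 6.35 under suspension, and 6.39 and 6.74 in control. Its groups overlapped, and suspension minus control was 0.00 (95% interval -0.42 to 0.42). Slc7a8 (LAT2), a light chain for neutral amino acids, was 6.12 and 5.98 under suspension with electroacupuncture, 5.96 and 5.79 under suspension, and 5.49 and 5.38 in control. All 4 suspended arrays lay above control, with a suspension difference of 0.44 (limma adjusted p = 0.232, n = 2 a group). Slc7a5 (LAT1), the light chain best known for leucine uptake, was 6.11 and 5.73, 5.86 and 5.75, and 5.47 and 5.78 in the same order of groups. Its suspension and control arrays overlapped, with a difference of 0.18 (95% interval -0.22 to 0.58). The shared heavy chain gene Slc3a2 was 8.13 and 8.07, 8.47 and 7.86, and 7.80 and 8.07, with overlapping groups and a difference of 0.23 (95% interval -0.22 to 0.68). Slc43a3, a relative of Slc43a1 that carries purine nucleobases, differed by 0.03 (95% interval -0.39 to 0.45).

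**Figure D2:**
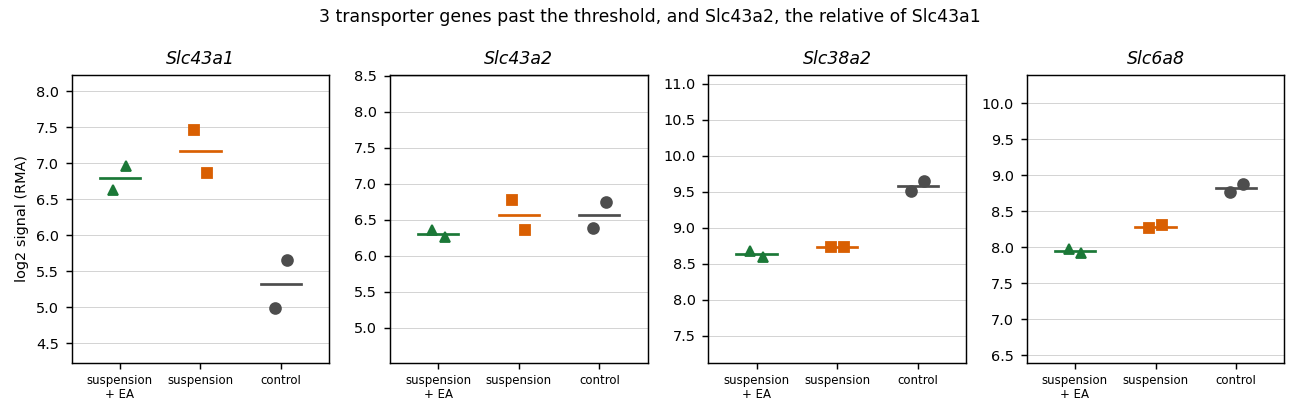
Log2 signal (vertical axes, each spanning the same range) on the 2 arrays of suspension with electroacupuncture (EA), suspension and control, with bars at the group means, for the 3 members past the threshold in a comparison and for Slc43a2. Slc43a1 is higher and Slc38a2 and Slc6a8 are lower on all 4 suspended arrays than on both control arrays, and the groups of Slc43a2 overlap.

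Besides Slc38a2, none of the SLC38 genes passed the test. Slc38a3 (SNAT3), the system N glutamine transporter, had -0.29 in suspension minus control (limma adjusted p = 0.409, n = 2 a group). Slc38a4, a system A gene, had -0.19, and Slc38a1, the other system A gene, had -0.20. Slc38a9, the lysosomal arginine sensor of mTORC1, was 6.68 and 6.55 under suspension with electroacupuncture, 6.81 and 6.65 under suspension, and 6.49 and 6.30 in control. All 4 suspended arrays lay above control, with a suspension difference of 0.33 (limma adjusted p = 0.376, n = 2 a group). Slc38a7, a lysosomal glutamine transporter, differed by 0.20 and Slc38a10 by 0.06. Slc38a5, the second system N gene, was below background on all 6 arrays.

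Slc6a8, on chromosome X, imports creatine, the store of high-energy phosphate in muscle. Its signal was 7.98 and 7.91 under suspension with electroacupuncture, 8.26 and 8.31 under suspension, and 8.77 and 8.88 in control. The 3 groups did not overlap, with the control arrays highest and those with electroacupuncture lowest. Suspension minus control was -0.54 ± 0.12 (SE, n = 2 a group), short of the threshold (limma adjusted p = 0.0905, 95% interval -0.82 to -0.26). The taurine transporter gene Slc6a6 was 9.01 and 8.70, 8.90 and 8.83, and 8.54 and 8.48 in the same order of groups, and its suspended arrays all lay above control. Its suspension difference was 0.35 (limma adjusted p = 0.340, n = 2 a group). The glycine transporter gene Slc6a9 had 0.25, Slc6a17 had -0.22, the noradrenaline transporter gene Slc6a2 had 0.13 and the proline transporter gene Slc6a7 had 0.24.

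Of the cationic amino acid genes, Slc7a1 (CAT1) differed by 0.04 (95% interval -0.30 to 0.37) and Slc7a2 (CAT2) by 0.04 (95% interval -0.37 to 0.44) between suspension and control. The exchanger light chain gene Slc7a6 was 6.74 and 6.68 under suspension with electroacupuncture, 6.90 and 6.78 under suspension, and 6.52 and 6.26 in control. Its suspended arrays all lay above control, with a suspension difference of 0.45 (limma adjusted p = 0.207, n = 2 a group). Its relative Slc7a7 had -0.19. Slc7a6os, on the strand opposite Slc7a6, had 0.19. Slc1a1, a glutamate, aspartate and cysteine transporter gene, was 4.74 and 4.76, 4.69 and 4.11, and 5.04 and 5.16 in the same order of groups. Its 4 suspended arrays lay below control, with a suspension difference of -0.70 (limma adjusted p = 0.163, n = 2 a group). The neutral exchanger gene Slc1a4 (ASCT1) had -0.20 and the glutamate transporter gene Slc1a7 had -0.29. Of the proton-coupled transporters, Slc36a1, a lysosomal one, had -0.24 and Slc36a4 had 0.01.

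Some differences from control depended on which control array was used. Among the 43 members above background, 7 differed by over 0.5 between the control arrays. Of these, 6 were higher on control array 2, namely Slc1a5, Slc1a3, Slc7a10, Slc6a13, Slc43a1 and Slc36a2, and Slc36a3 was lower. Slc1a5 (ASCT2), a glutamine exchanger gene, was 7.60 and 7.40 under suspension with electroacupuncture, 7.32 and 6.81 under suspension, and 7.01 and 8.11 in control. Its control arrays enclosed all the others but 1. Suspension minus control was -0.49 with both control arrays, 0.05 without array 2 and -1.04 without array 1. Slc1a3, a glutamate transporter gene, had -0.22, which became 0.30 without control array 2 and -0.75 without array 1. Slc7a10, an exchanger of small neutral amino acids known from adipocytes, had -0.63, and -0.21 without control array 2. Slc36a2, a proton-coupled transporter of glycine, alanine and proline also known from fat, had -0.54, and -0.23 without that array. None of these was a call.

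The mean signal of 9 of 10 listed adipocyte markers, all 9 above background, was 7.48 and 7.35 under suspension with electroacupuncture, 7.07 and 6.92 under suspension, and 6.85 and 8.28 in control. It was highest on control array 2, as were Slc1a5, Slc1a3, Slc7a10 and Slc36a2. These members were picked as higher there than on control array 1. Of the adipocyte list, Adipoq, Cidec and Fabp4 were highest on control array 2 too, at 8.09, 7.37 and 10.08. Car3 was highest on suspension array 2, at 12.665, against 12.511 on control array 2. The other genes of that list are not given singly. Slow-muscle, endothelial, smooth muscle and pericyte, and red cell markers also averaged highest on control array 2, at 11.55, 7.35, 7.44 and 4.41. Of 9 listed red cell markers only 3 were measured, with 2 above background. On control array 1 these lists averaged 11.25, 7.14, 7.22 and 3.91. The fast-muscle, macrophage, T and B cell, fibroblast and tendon, and nerve lists were not highest there. The part of adipocyte RNA, or RNA of other cell types, in the members' values was not tested. Slc43a1 was higher on control array 2 as well, but lower on both control arrays than on any suspended one. Under suspension 8 members differed by over 0.5 between the arrays, with Slc1a5, Slc1a1, Slc36a4, Slc43a1, Slc3a2, Slc38a7 and Slc38a1 lower and Slc6a17 higher on array 2. Macrophage markers averaged 5.88 and 5.56, 5.69 and 5.14, and 4.95 and 5.26, and fibroblast and tendon markers 7.59 and 7.70, 7.75 and 7.05, and 8.24 and 8.23, in the same order of groups. Their part in the members' values was not tested. With electroacupuncture 1 member, Slc6a13, differed by that much.

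**Figure D3:**
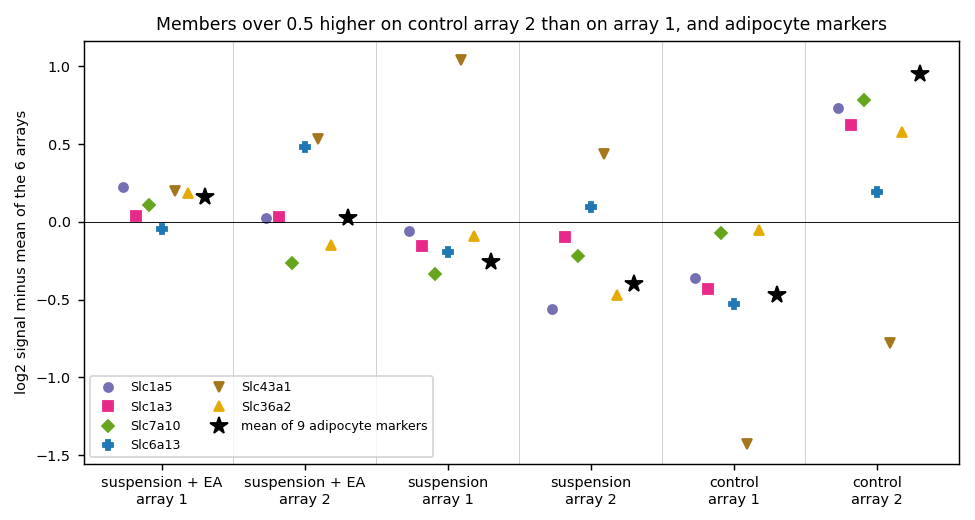
Log2 signal minus the gene's mean over the 6 arrays (vertical axis) on each array, for the 6 members above background that were over 0.5 higher on control array 2 than on control array 1, and for the mean of 9 adipocyte markers (stars). On control array 2 the stars and Slc1a5, Slc1a3, Slc7a10 and Slc36a2 are at their highest, whereas Slc43a1 is below its mean on both control arrays. Other marker lists, some of them also highest on control array 2, are not drawn.

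Suspension with electroacupuncture was compared with suspension alone to address the effect of the treatment. By limma 0 of 64 members were called, as were 0 of all genes (0%). At an unadjusted p under 0.05 there were 2 members, Slc6a8, lower with electroacupuncture, and Slc6a5, higher but below background, which is 3.13% of the members against 3.07% of all genes. Slc6a8 had a difference of -0.34 ± 0.12 (SE, n = 2 a group, limma adjusted p = 1.00, 95% interval -0.62 to -0.06). The median difference of the members was -0.02, against -0.01 for all genes, with a range from -0.37 for Slc43a1 to 0.43 for Slc1a5.

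By family, of 11 SLC38 genes 10 were below 0, with a median of -0.18, and Slc38a7 was above it. Slc38a4 had -0.24 and Slc38a3 had -0.19. The SLC1 genes had a median of 0.21 and the SLC43 genes of -0.26. No test compared these medians with those of other genes. For Slc43a1 the 95% interval of the difference was -0.96 to 0.22, and for Slc38a2 it was -0.37 to 0.19 around -0.09. In 42 of the 43 members above background the interval lay within 1 log2 unit of 0, with Slc1a5 as the exception. The distance from a difference to either end of its interval had a median of 0.40 and ran from 0.28 to 0.71. A difference smaller than its distance could not be told from 0 with 2 arrays a group. A larger one could still fail the test adjusted over all genes, as Slc6a8 did at -0.34.

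Suspension with electroacupuncture was also compared with control, which shares its control arrays with the comparison of suspension with control, so the 2 sets of values are not independent. In treated soleus Slc43a1 rose and Slc38a2 and Slc6a8 fell. Over all genes 1.03% were called, 0.446% higher and 0.587% lower. At an unadjusted p under 0.05 there were 8 members (12.5%), 4 higher and 4 lower, against 12.8% of all genes. The members' median was -0.04, against 0.01 for all genes.

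The arrays behind these calls are given with each gene above. Slc6a8 fell by 0.88 on the log2 scale (SE 0.12, n = 2 a group), 1.84-fold lower with electroacupuncture than in control (limma adjusted p = 0.0164, 95% interval -1.16 to -0.60). Without electroacupuncture array 1 its difference was -0.91 (limma adjusted p = 0.171) and without array 2 it was -0.85 (limma adjusted p = 0.198), neither of them a call, and the call was also lost with every cluster by itself. Whether electroacupuncture differed from suspension in this gene was tested directly, by the -0.34 above, and did not pass. Slc38a2 fell by 0.95 on the log2 scale (SE 0.12, n = 2 a group), 1.93-fold lower (limma adjusted p = 0.0139, 95% interval -1.23 to -0.66). Without electroacupuncture array 1 or 2 its difference was -0.99 or -0.90 (limma adjusted p = 0.142 and 0.172), short of a call, as with every cluster by itself.

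Slc43a1 rose by 1.47 ± 0.26 (SE, n = 2 a group), 2.77-fold, with electroacupuncture relative to control (limma adjusted p = 0.0395, 95% interval 0.89 to 2.06). That call was lost without control array 1, at 1.14 (limma adjusted p = 0.102), without electroacupuncture array 1 or 2, at 1.64 or 1.30 (limma adjusted p = 0.187 and 0.287), without a trend in the prior variance, with the replicate block (limma adjusted p = 0.0643) and with every cluster by itself. Among the members that did not pass, Slc7a8 had 0.61 (limma adjusted p = 0.102, n = 2 a group), Slc38a3 had -0.49 (limma adjusted p = 0.156, n = 2 a group) and Slc38a4 had -0.43 (limma adjusted p = 0.200, n = 2 a group). On the arrays, Slc38a3 was 8.89 and 9.03 with electroacupuncture, 9.13 and 9.17 under suspension, and 9.34 and 9.55 in control, so the 3 groups did not overlap. Slc38a4 was 6.31 and 6.45, 6.59 and 6.64, and 6.83 and 6.78 in the same order, again without overlap. Genes were named partly for a small unadjusted p, so such separation is no further test.

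**Figure D4:**
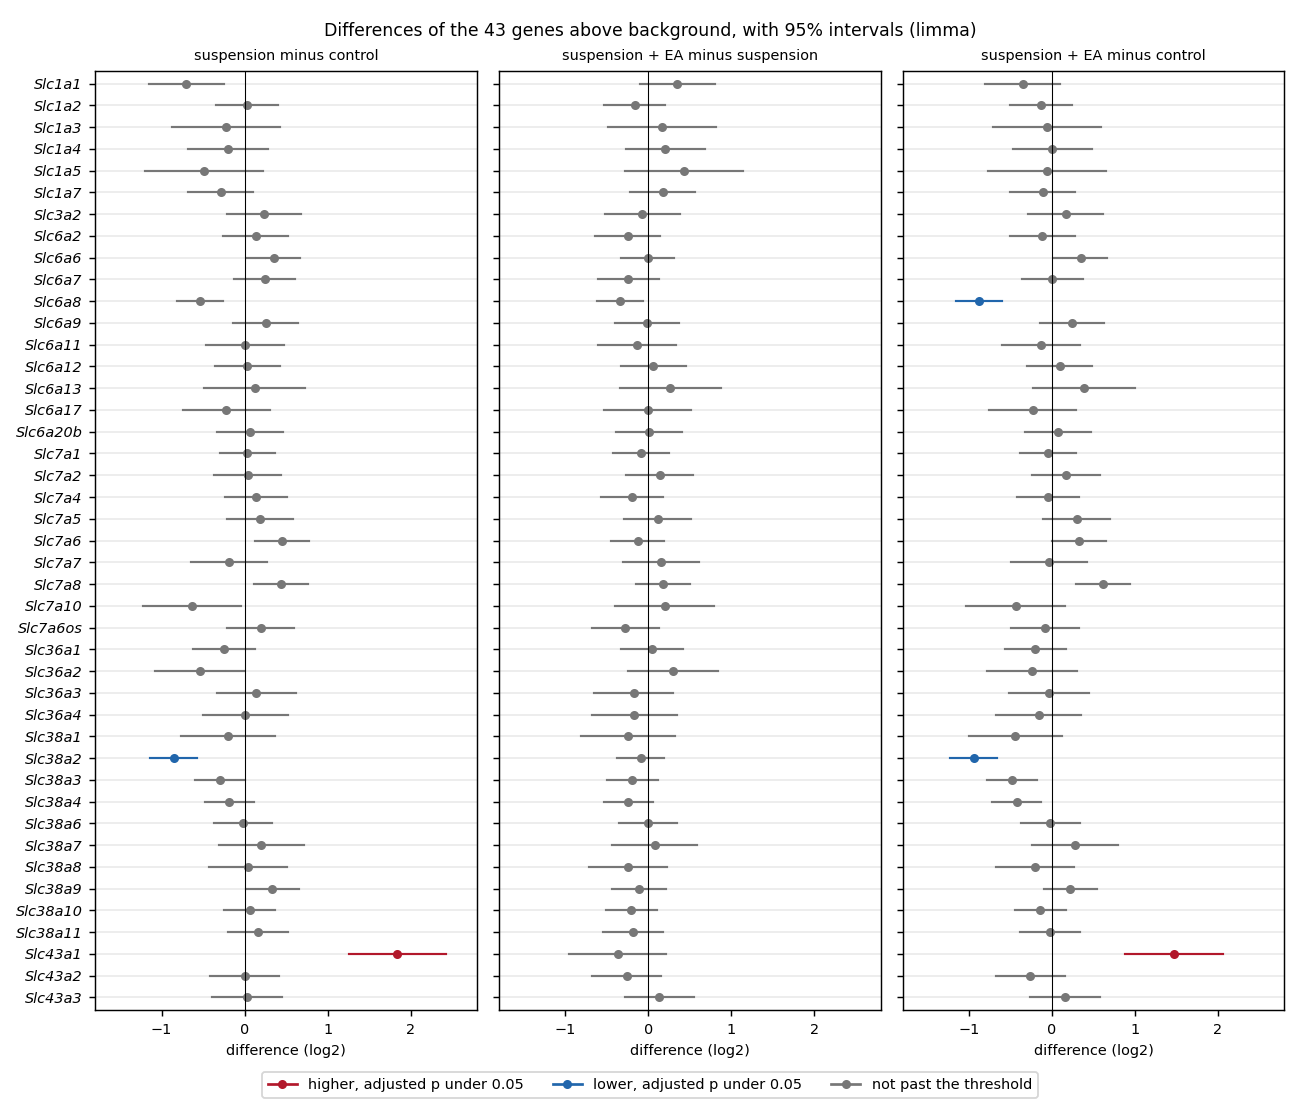
Difference in log2 signal (horizontal axes) of the 43 members above background, with 95% intervals from limma, for suspension minus control, suspension with electroacupuncture (EA) minus suspension, and suspension with EA minus control. Coloured points passed an adjusted p of 0.05, namely Slc43a1 and Slc38a2 in the left panel, none in the middle, and these 2 with Slc6a8 in the right.

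Other genes of amino acid handling were counted from 5 lists, for sensing, stress response, branched-chain breakdown, enzymes and other transporters. Between electroacupuncture and suspension limma called none of them. At an unadjusted p under 0.05 there were 1 of 38, 3 of 38, 0 of 26, 1 of 32 and 0 of 23, against 3.07% of all genes. Over all genes 1.05% were called and 12.7% had an unadjusted p under 0.05 in suspension minus control. Most genes of the lists lay above background, and over all genes above it that share was 16.6%. Of 38 measured genes of amino acid sensing by mTORC1, 1 rose under suspension, Castor2, which encodes a partner of the GATOR2 complex in that pathway, and none fell, with 7 (18.4%) at an unadjusted p under 0.05. The list's median was -0.02. Castor2 was 8.54 and 8.82 under suspension with electroacupuncture, 9.17 and 8.80 under suspension, and 7.85 and 7.89 in control. All 4 suspended arrays lay above control, and Castor2 rose by 1.12 under suspension (limma adjusted p = 0.0210, n = 2 a group). That call was lost without suspension array 1 or 2, at 0.93 or 1.30 (limma adjusted p = 0.127 and 0.0509), without either electroacupuncture array (limma adjusted p = 0.0529 and 0.0530), in the fit of the 2 groups alone and with every cluster by itself. With electroacupuncture relative to control Castor2 had 0.81 (limma adjusted p = 0.0606), and limma called none of this list, against 1.03% of all genes. At an unadjusted p under 0.05 there were 9 (23.7%), against 12.8% of all genes. Of 38 genes of the integrated stress response, a program switched on by amino acid shortage, which were the kinases that start it and genes downstream, Gpt2 and Chac1 rose under suspension and none fell. At an unadjusted p under 0.05 there were 12 of them (31.6%), 6 higher and 6 lower, and the median was -0.02. With electroacupuncture relative to control there were also 12, 4 higher and 8 lower, against 12.8% of all genes, and Gpt2 alone was called.

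Gpt2, the mitochondrial alanine aminotransferase, was 7.55 and 7.79 under suspension with electroacupuncture, 7.67 and 7.69 under suspension, and 6.23 and 6.54 in control. Its suspended arrays all lay above control, and Gpt2 rose by 1.29 under suspension (limma adjusted p = 0.0102, n = 2 a group) and by 1.29 with electroacupuncture (limma adjusted p = 0.0111, n = 2 a group), both relative to control. The suspension call was lost without suspension array 1 or 2 (limma adjusted p = 0.0747 and 0.0741), and the electroacupuncture call without its array 1 or 2 (limma adjusted p = 0.0791 and 0.123), and both were lost with every cluster by itself. Chac1, which degrades glutathione, was 7.61 and 8.18, 8.63 and 7.81, and 5.25 and 6.64 in the same order of groups. Its suspension call (limma adjusted p = 0.0471, n = 2 a group) was lost without control array 1, at 1.58 (limma adjusted p = 0.0865), and without any 1 of the 4 suspended arrays (limma adjusted p from 0.0949 to 0.227). It passed in 6 of 16 alternatives, and was also lost without a trend in the prior variance, with array weights, in the fit of the 2 groups alone, with the replicate block and with every cluster by itself. Asns, the asparagine synthetase gene of the same list, had -0.70, and Atf3, a transcription factor gene of it, had -1.22, neither of them a call. Eif4ebp1, which is on this list and on the sensing list, had 0.92, just short of a call (limma adjusted p = 0.0517, n = 2 a group).

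Of 32 measured amino acid enzyme genes, Gpt2 rose under suspension, with 6 (18.8%) at an unadjusted p under 0.05. With electroacupuncture relative to control Gpt2 and Glul rose, where 1.03% of all genes were called. At an unadjusted p under 0.05 there were 7 (21.9%) in that comparison, against 12.8% of all genes. Glul, the glutamine synthetase, was 9.34 and 9.53 under suspension with electroacupuncture, 9.42 and 9.07 under suspension, and 8.46 and 8.52 in control. Its suspended arrays all lay above control. Relative to control it had 0.94 under suspension with electroacupuncture (limma adjusted p = 0.0286, n = 2 a group). Under suspension alone it had 0.75 (limma adjusted p = 0.0649, n = 2 a group). The groups with and without electroacupuncture overlapped, and their difference was not a call. The electroacupuncture call of Glul was lost without control array 1 (limma adjusted p = 0.0632) and without electroacupuncture array 1 or 2 (limma adjusted p = 0.174 and 0.260), as well as without a trend in the prior variance, with the replicate block and with every cluster by itself. By limma none of 26 genes of branched-chain amino acid breakdown was called under suspension. Nor was any of the 23 genes, Slc7a6os included, listed as other amino acid and peptide transporters. At an unadjusted p under 0.05 there were 7 (26.9%) and 4 (17.4%), with medians of 0.06 and 0.05. Of the breakdown genes, Aldh6a1, a valine pathway enzyme, had 0.63 (limma adjusted p = 0.0781, n = 2 a group), and Ppm1k, the phosphatase that activates the branched-chain ketoacid dehydrogenase, had 0.88 (limma adjusted p = 0.0998, n = 2 a group). Ppm1k had 1.23 and was called without control array 1 (limma adjusted p = 0.0170), and had 0.54 without control array 2. With electroacupuncture relative to control, limma called none of either list, with 8 (30.8%) and 2 (8.70%) at an unadjusted p under 0.05. The share was 12.8% of all genes and 16.3% of those above background.

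**Figure D5:**
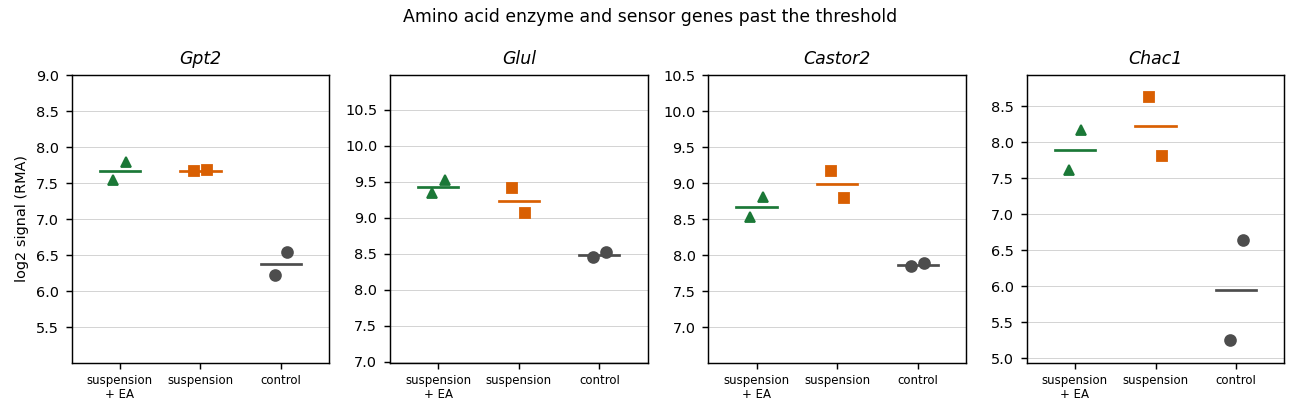
Log2 signal (vertical axes, each spanning the same range) on the 2 arrays of suspension with electroacupuncture (EA), suspension and control, with bars at the group means, for the 4 listed enzyme and sensor genes past the threshold in a comparison with control. All 4 genes are higher on the 4 suspended arrays than on both control arrays.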

How the data were processed

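On 6 arrays, the authors deposited a log2 signal for each of 35556 transcript clusters, made with RMA in Affymetrix Expression Console, per the submitters' processing notes, and used here without change. Clusters were joined to genes through the platform annotation: 21789 had 1 symbol, 1621 had several and 12146 had none, and the last 2 kinds were left out of the comparisons. Symbols were checked by Entrez ID, which matched 19855 of the 19938 genes and changed 0. A linear model over the 3 groups was fitted to all genes with limma 3.58.1 in R 4.3.3 (trended moderated variance, 3 residual and 5.88 prior degrees of freedom, median SE of a difference 0.17), and its procedure was tested on simulated data. The number of arrays limits the precision. Promoter motifs were found in RefSeq sequences with Python 3.11.15. The files' genome build is not given in the sources used here.

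The members and lists were chosen with earlier results of these data known. Members named were those past the threshold, in each comparison up to 12 above background with the smallest unadjusted p, and a fixed set. Of the lists, genes past the threshold and up to 4 others were eligible. The alternatives were another prior, array weights, a background filter, other scalings, other uses of clusters, other fits, a replicate block and each array left out in turn.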

Additional observations from a re-analysis of the deposited data

How the results depend on the processing

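Among 1003 alternative values of members in each comparison, none of the few called ones changed sign, though calls were lost as given above. No member was called in electroacupuncture minus suspension. Of the uncalled values, 53 changed sign in suspension minus control, 47 in electroacupuncture minus suspension and 55 in electroacupuncture minus control. For suspension minus control 209 genes were called, but 80 without a variance trend, 130 with array weights, 68 in a fit of the 2 groups alone, 102 with the replicate block and 1 with every cluster by itself. The members called were 2, but 1 without the trend, 1 in the fit of the 2 groups alone, 1 with the replicate block and 0 with every cluster by itself. For electroacupuncture minus suspension 0 genes were called, but 4 with array weights and 3 in the fit of the 2 groups alone, and 0 members in every setting. For electroacupuncture minus control 206 genes were called, but 101 without the trend, 129 in the fit of the 2 groups alone, 127 with the replicate block, 312 with quantile normalization again and 1 with every cluster by itself, and 3 members, but 2 without the trend, 2 with the replicate block and 0 with every cluster by itself. With each array left out in turn, the calls were 16 to 301, 0 to 3 and 2 to 299 genes, and 0 to 2, 0 to 0 and 0 to 3 members, in the same order of comparisons. The count above background was 43, but 28 at the 99th percentile, 57 with vomeronasal receptor genes in place of olfactory ones, and 42 to 43 with an array left out. Median centring, quantile normalization and cyclic loess moved the median difference of all genes by at most 0.0116. Same-numbered arrays had correlated deviations of -0.02 for electroacupuncture with suspension, 0.02 for electroacupuncture with control and -0.16 for suspension with control. The labels do not say that a number pairs arrays. With 2 arrays a group, a difference whose interval held 0 could not be told from 0. One whose interval left out 0 could still fail the test adjusted over all genes. Signals near background are compressed. The cause of these changes was not tested.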

Other observations

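Slc15a2, a peptide transporter gene of the list of other transporters, was 5.27 and 2.90 under suspension with electroacupuncture, 4.27 and 4.73 under suspension, and 3.09 and 2.65 in control. Array 1 of the electroacupuncture group was the highest of the 6, and its array 2 lay between the control arrays. Suspension minus control was 1.63 (limma adjusted p = 0.296, n = 2 a group). It was called in the fit of the 2 groups alone (limma adjusted p = 0.0450) and without electroacupuncture array 1 or 2 (limma adjusted p = 0.0459 and 0.0441).

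Slc38a1 and Slc38a9 had a second cluster. The second cluster of Slc38a1, with a mean of 2.56 below background, had -0.54 for suspension minus control, against -0.20 for the cluster used. That of Slc38a9, with a mean of 4.87, had 0.16 against 0.33.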
